A study of Rattus norvegicus with 14 samples.

Results

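Among the microRNAs (miRNAs) counted in the serum of rat pups were 4 that are known from skin and other surface epithelia: miR-203a-3p, miR-203b-3p, miR-205 and miR-184. They were chosen by name, as the listed arms of the precursors miR-203a, miR-203b, miR-205 and miR-184, and are 4 of the 375 mature miRNAs in the deposited count table. No second arm of these precursors is in the rows used here. All 4 had counts in all 14 libraries and all 4 passed the filter on low counts, which left 357 miRNAs for testing.

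Serum came from female Long Evans rats on postnatal day 8. The 6 PTU libraries are from hypothyroid pups whose mothers drank water with 3 ppm PTU (propylthiouracil, an inhibitor of thyroid peroxidase), and the 8 Control libraries are from euthyroid pups whose mothers drank water with 0 ppm. With 1 pup taken per litter, each library stands for a different animal and litter. The drug was given in the drinking water of the mothers, and the labels give the exposure as through pregnancy or lactation.

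A miRNA is a short RNA that pairs through its seed (bases 2 to 8) with messenger RNAs and lowers their output. In mouse skin miR-203 is made as keratinocytes leave the basal layer, and it represses p63, a transcription factor of epidermal stem cells. miR-205 is made in basal cells of stratified epithelia and, with the miR-200 family, represses the transcription factors ZEB1 and ZEB2. miR-184 is abundant in the corneal epithelium and lens, and in human keratinocytes it opposes the repression of the lipid phosphatase SHIP2 by miR-205. In serum, fewer cells of a type, less RNA per cell and less release from each cell cannot be told apart, and the counts do not show from which tissue a miRNA came.

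The mature sequences show how the miR-203 pair relates and that the other members are unrelated to it. They are given 5′ to 3′ from RefSeq (GRCr8), with the seed in capitals, and all 4 members matched by name.
miR-203a-3p: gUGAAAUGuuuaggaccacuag
miR-203b-3p: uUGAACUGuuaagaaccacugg
miR-205: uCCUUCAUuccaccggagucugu
miR-184: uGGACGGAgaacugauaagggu
No other listed miRNA among the 343 that matched a RefSeq sequence by name has any of these 4 seeds. Compared base by base from the 5′ end, miR-203a-3p and miR-203b-3p are identical at 17 of 22 bases. They differ, with the miR-203a-3p base first and positions counted from 1 at the 5′ end, by G1U, A6C, U11A, G14A and A21G, of which A6C lies in the seed.

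The miR-203 pair comes from opposite strands of 1 short stretch of chromosome 6, between the coding genes Aspg and Kif26a in the GRCr8 gene order. The Mir203 hairpin (chr6:137020705-137020801, + strand, GRCr8) is shown to place both products, with miR-203a-3p as the second run of capitals and the bases opposite miR-203b-3p as the first.
Mir203 hairpin: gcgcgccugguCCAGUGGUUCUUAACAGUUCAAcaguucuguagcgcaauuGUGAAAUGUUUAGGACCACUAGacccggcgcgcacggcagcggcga
miR-203b-3p is read from the - strand at chr6:137020716-137020737, from a precursor that RefSeq calls Mir3545. It pairs with 20 of 20 shared bases of miR-203a-5p, the other arm of the Mir203 hairpin. The strand setting of the counting was not given in the sources used here, and reads of miR-203a-5p counted without strand could not be told from miR-203b-3p. Mir205 lies on chromosome 13 between the coding genes Camk1g and Plxna2, and Mir184 on chromosome 8 between Ankrd34c and Rasgrf1, both on the - strand.

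Total counts over the listed miRNAs were 818999 to 2119979 in PTU libraries and 452961 to 1935825 in Control libraries. A count of 3, taken as the floor, was worth 1.44 to 6.38 CPM (counts per 1000000 counts of the library, with trimmed-mean TMM factors), and all member counts were above it. PTU replicate 6 stood apart from the other libraries: miR-141-3p, an epithelial miRNA of the miR-200 family, was at 3441 CPM there, where the highest Control library had 590 CPM. The summed erythroid miRNAs (miR-144 and miR-451 arms and miR-363-3p, of red blood cells) were also highest in that library, at 19314 CPM. On that sum PTU replicates 3, 4 and 5, at 12501, 9202 and 7973 CPM, also lay above every Control library (at most 6058 CPM). The log2 fold changes and ratios of the members and the values of the marker lists that PTU replicate 6 moved are therefore also given without it.

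miR-203a-3p and miR-205 were well represented in serum and the other members were scarcer. By mean level over all libraries miR-203a-3p ranked 31 of 357 with 3867 CPM, miR-205 ranked 45 with 2188 CPM, miR-203b-3p ranked 168 with 185 CPM and miR-184 ranked 274 with 33.4 CPM. The mature forms are listed at 22 or 23 bases, and the part of length in this order was not tested. miRNAs differ in how well they enter a library, and levels of different miRNAs are compared here only roughly. The summed level of the 4 members had a median of 5047 CPM in PTU libraries (3177 to 9102) and of 7264 CPM in Control libraries (4960 to 8285), so the groups overlapped.

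**Figure D1:**
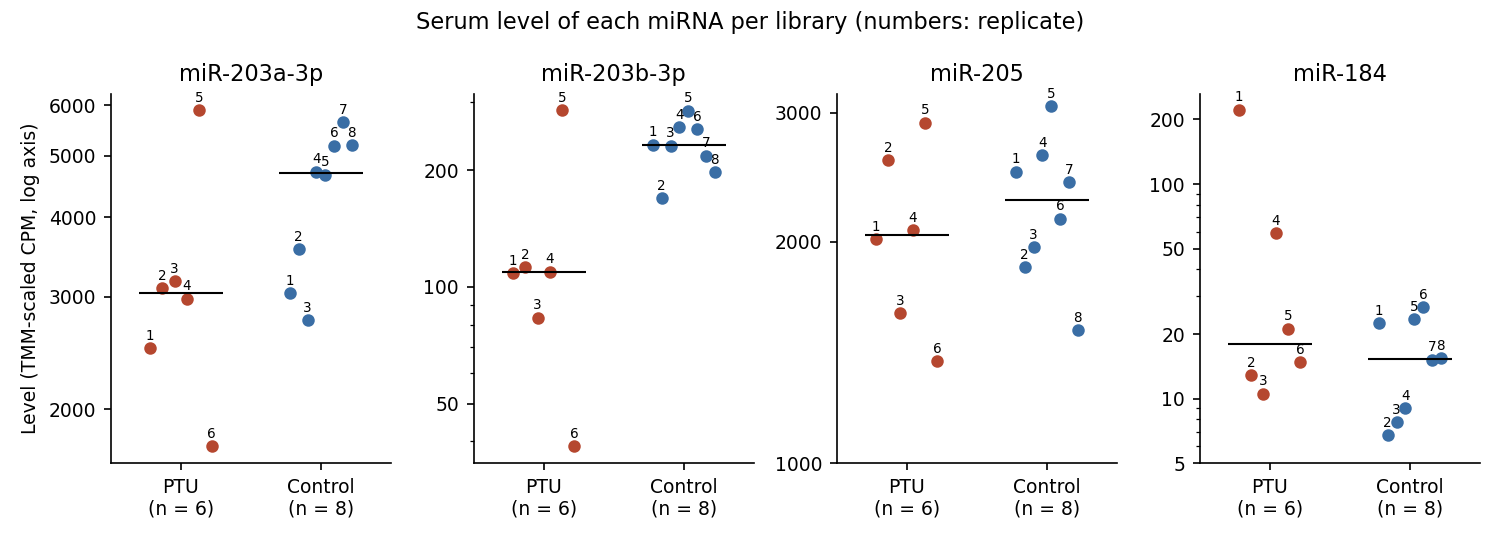
Level of each miRNA in every library, in TMM-scaled CPM on log axes, for the PTU group (n = 6) and the Control group (n = 8); points are libraries with their replicate number and lines are group medians. For miR-203b-3p, 5 of 6 PTU libraries lie below all Control libraries, and PTU replicate 5 lies at 286 CPM, beside the highest Control library.

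None of the 4 members passed a false discovery rate of 0.05 between PTU and Control serum (edgeR's quasi-likelihood test, adjusted over 357 miRNAs). The background was the same, with 0% of the 357 called in either direction. At an unadjusted p under 0.05 there were 2 of 4 members, miR-203b-3p lower and miR-184 higher in PTU, where 13.2% of all tested miRNAs were past it (7.84% higher and 5.32% lower). The members' median log2 fold change was -0.27, beside 0.03 over all tested miRNAs. Of the 4 members 3 had a negative log2 fold change, where 42.3% of all tested miRNAs did, and 1 a positive one, where 57.7% did.

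miR-203b-3p, from the antisense strand of the miR-203 locus, had the most negative log2 fold change of the members. It ranged from 38.8 to 286 CPM in PTU libraries with a median of 109 CPM, and from 169 to 285 CPM in Control libraries with a median of 232 CPM. Of the 6 PTU libraries, 5 lay at or below 113 CPM and so under every Control library, and the sixth, PTU replicate 5, was the highest of all 14. The mean was 123 ± 84.4 CPM in PTU pups (SD, n = 6) and 231 ± 36.5 CPM in Control pups (SD, n = 8). edgeR estimated a log2 fold change of -0.91 ± 0.31 (SE), from -1.55 to -0.26 as the 95% interval, with an adjusted p of 0.257 and rank 11 of 357 by p. The exact permutation test (two-sided, 3003 arrangements of the group labels) gave p = 0.00333, and 0.130 after adjustment over 357 miRNAs.

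The difference in miR-203b-3p depended on single PTU libraries. Without PTU replicate 5 its log2 fold change was -1.36 ± 0.22 (SE; adjusted p = 0.00576, edgeR), and it was then the 1 miRNA called. The exact permutation test without that library gave an adjusted p of 0.0927. Without PTU replicate 6, the lowest of the group, the log2 fold change was -0.74 (adjusted p = 0.189, edgeR). In the authors' deposited table miR-203b-3p ranked 9 of 375 by p, with a log2 fold change of -0.91 and an FDR of 0.106.

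miR-203a-3p, the more abundant sense product and a miRNA of differentiating keratinocytes, ranged from 1748 to 5889 CPM in PTU libraries (median 3038 CPM) and from 2755 to 5637 CPM in Control libraries (median 4693 CPM). The groups overlapped broadly: 1 of 6 PTU libraries, replicate 5, lay above the Control median, and all 8 Control libraries lay within the PTU range. The mean was 3229 ± 1407 CPM in PTU pups (SD, n = 6) and 4345 ± 1079 CPM in Control pups (SD, n = 8). Its log2 fold change of -0.43 ± 0.23 (SE) had a 95% interval from -0.92 to 0.06 (adjusted p = 0.446, edgeR). Without PTU replicate 5 it was -0.68 (adjusted p = 0.163, edgeR), and without PTU replicate 6 it was -0.33.

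miR-205, of basal epithelial cells, was close in level between the groups. It ranged from 1375 to 2906 CPM in PTU libraries (median 2047 CPM) and from 1516 to 3060 CPM in Control libraries (median 2283 CPM), and 2 of 6 PTU libraries lay above the Control median. The mean was 2093 ± 577 CPM in PTU pups (SD, n = 6) and 2259 ± 489 CPM in Control pups (SD, n = 8). The log2 fold change was -0.11 ± 0.18 (SE; adjusted p = 0.868, edgeR), and its 95% interval of -0.50 to 0.28 leaves room for changes in both directions. Without PTU replicate 6 it was -0.04.

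miR-184, of cornea and lens, had a higher mean in PTU serum, with 2 libraries above the rest. It had 11 to 186 counts in PTU libraries and 7 to 20 counts in Control libraries. Its level ranged from 10.5 to 222 CPM in PTU libraries with a median of 18.0 CPM, and from 6.77 to 26.7 CPM in Control libraries with a median of 15.3 CPM. PTU replicate 1 at 222 CPM and PTU replicate 4 at 59.1 CPM lay above every Control library, and the other 4 PTU libraries lay within the Control range. The 186 counts of PTU replicate 1 are 227 CPM without TMM factors (exact Clopper-Pearson 95% interval 196 to 262), and the 18 counts of Control replicate 6, the highest Control library, are 25.8 CPM on that scale (15.3 to 40.8).

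For miR-184 edgeR estimated a log2 fold change of 1.88 ± 0.64 (SE), from 0.54 to 3.23 as the 95% interval, with an adjusted p of 0.257 and rank 12 of 357 by p. The mean was 56.7 ± 82.9 CPM in PTU pups (SD, n = 6) and 15.8 ± 7.67 CPM in Control pups (SD, n = 8). Without PTU replicate 1 the log2 fold change was 0.64 ± 0.43 (SE; adjusted p = 0.5, edgeR), and without PTU replicate 6 it was 2.08. With all libraries on the log scale, where 1 high library weighs less, the difference of means was 0.96, with p = 0.150 by the exact permutation test and 0.552 after adjustment. The authors' deposited table ranks miR-184 6 of 375 by p, with a log2 fold change of 1.84 and an FDR of 0.0556. That table has 3 miRNAs at an FDR under 0.05, none of them a member.

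**Figure D2:**
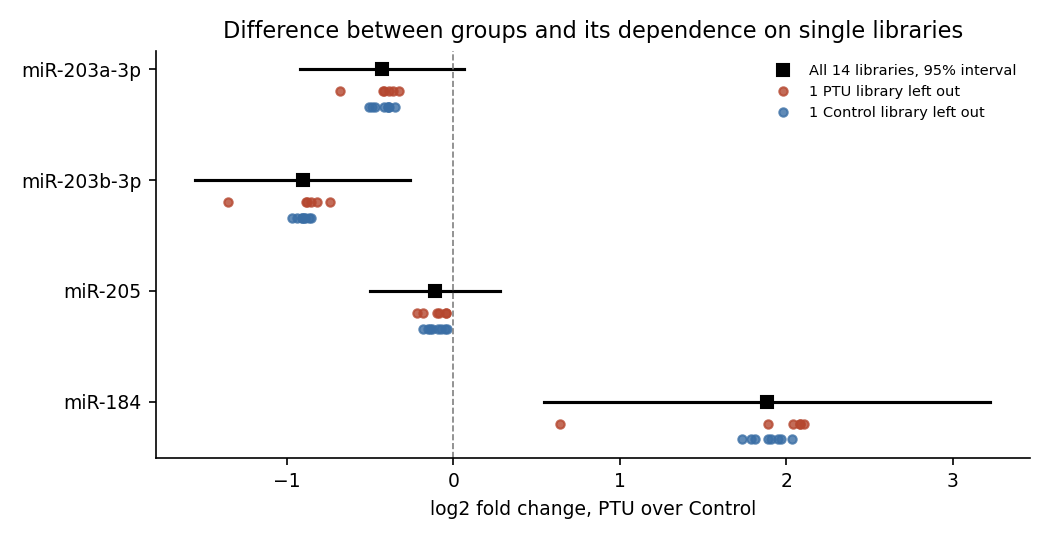
log2 fold change (x axis, PTU over Control) of each miRNA by edgeR. Squares with lines are all 14 libraries with the 95% interval, red points leave out 1 PTU library and blue points 1 Control library. Leaving out PTU replicate 5 moves miR-203b-3p to -1.36 and leaving out PTU replicate 1 moves miR-184 to 0.64, further than leaving out any Control library does.

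The members also differed in how much they varied between pups of 1 group. miR-203b-3p had a coefficient of variation of 68.6% in the PTU group and 15.8% in the Control group, where the medians over the 357 miRNAs were 27.7% in the PTU group and 23.4% in the Control group. By this measure it ranked 19 in the PTU group and 277 in the Control group, counted from the most variable. miR-184 had 146% in the PTU group (rank 3) and 48.5% in the Control group (rank 31). miR-203a-3p had 43.6% in the PTU group and 24.8% in the Control group. miR-205 had 27.6% in the PTU group and 21.6% in the Control group, near the medians. The PTU values include single high libraries. PTU replicate 5 had 286 CPM of miR-203b-3p and 5889 CPM of miR-203a-3p, where the other PTU libraries had at most 113 and 3173 CPM. PTU replicate 1 had 222 CPM of miR-184, where the others had at most 59.1 CPM. Counting error adds to the spread of miR-184 in Control libraries, which had 7 to 20 counts. These are descriptions, and the difference in spread between the groups was not tested.

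Ratios within a library need no scaling between libraries, and they test whether the members differed from each other in the PTU against Control comparison. There are 6 ratios between the 4 members. Each was compared by the same exact permutation test (smallest possible p 0.000333), and p-values were adjusted over the 6 ratios. This test responds to a difference in spread as well as in means, and its p does not separate them. The SD was larger in PTU libraries for miR-203b-3p over miR-205 and for the ratios with miR-184. The SE of each difference pools the variance of both groups. The pairs were compared with earlier results of these data known, including the low miR-203b-3p, so these tests do not support those results independently.

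miR-203b-3p was lower in PTU serum relative to miR-205. The log2 ratio averaged -4.26 ± 0.56 in PTU libraries (SD, n = 6) and -3.27 ± 0.21 in Control libraries (SD, n = 8), a difference of -0.996 ± 0.215 (SE; exact permutation p = 0.00167, adjusted p = 0.00599). The 8 Control libraries lay between -3.46 and -2.93. Of the PTU libraries 5 lay between -5.08 and -4.19, below all Control libraries, and PTU replicate 5 at -3.34 lay within the Control range. With any 1 of the 14 libraries left out the difference stayed between -1.18 and -0.83, with an adjusted p of at most 0.014 (exact permutation test). Without PTU replicate 6 it was -0.83.

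miR-203b-3p was also lower relative to its sense partner. It made up 2.17% to 4.63% of the summed counts of miR-203b-3p and miR-203a-3p in PTU libraries (median 3.53%) and 3.67% to 7.76% in Control libraries (median 4.94%). The widest exact Clopper-Pearson 95% interval of these shares was 5.99% to 8.35%, in Control replicate 1. The log2 ratio averaged -4.83 ± 0.41 in PTU libraries (SD, n = 6) and -4.20 ± 0.42 in Control libraries (SD, n = 8), a difference of -0.64 ± 0.22 (SE; exact permutation p = 0.0147, adjusted p = 0.0293). All 6 PTU libraries lay below the Control median, but the groups overlapped. The adjusted p was 0.0513 to 0.0746 without PTU replicate 3 or 6 or Control replicate 3, 4 or 5, which ended the call. The difference without PTU replicate 6 was -0.52.

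miR-184 was higher relative to miR-203b-3p. The log2 ratio averaged -1.76 ± 1.72 in PTU libraries (SD, n = 6) and -3.84 ± 0.58 in Control libraries (SD, n = 8), a difference of 2.08 ± 0.65 (SE; exact permutation p = 0.002, adjusted p = 0.00599). Of the 6 PTU libraries 5 lay above all Control libraries, and PTU replicate 5 at -3.65 lay near the Control median of -3.62. In PTU replicate 1 miR-184 had more counts than miR-203b-3p, 186 against 91. Without that library the difference was 1.53 (exact permutation test, adjusted p = 0.014), and without PTU replicate 6 it was 1.99 (exact permutation test, adjusted p = 0.014).

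The other ratios were less firm. miR-184 over miR-203a-3p differed by 1.44 ± 0.68 (SE; exact permutation adjusted p = 0.0485), and the call ended in 10 of the 14 fits without 1 library; without PTU replicate 1 the difference was 0.82 (adjusted p = 0.142, exact permutation test) and without PTU replicate 6 it was 1.47 (adjusted p = 0.0746, exact permutation test). miR-184 over miR-205 differed by 1.09 ± 0.62 (SE; exact permutation adjusted p = 0.109), with 0.52 without PTU replicate 1 and 1.38 without PTU replicate 2, where the adjusted p was 0.0429; without PTU replicate 6 it was 1.16. miR-203a-3p over miR-205 differed by -0.36 ± 0.23 (SE; exact permutation adjusted p = 0.142), and by -0.31 without PTU replicate 6.

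**Figure D3:**
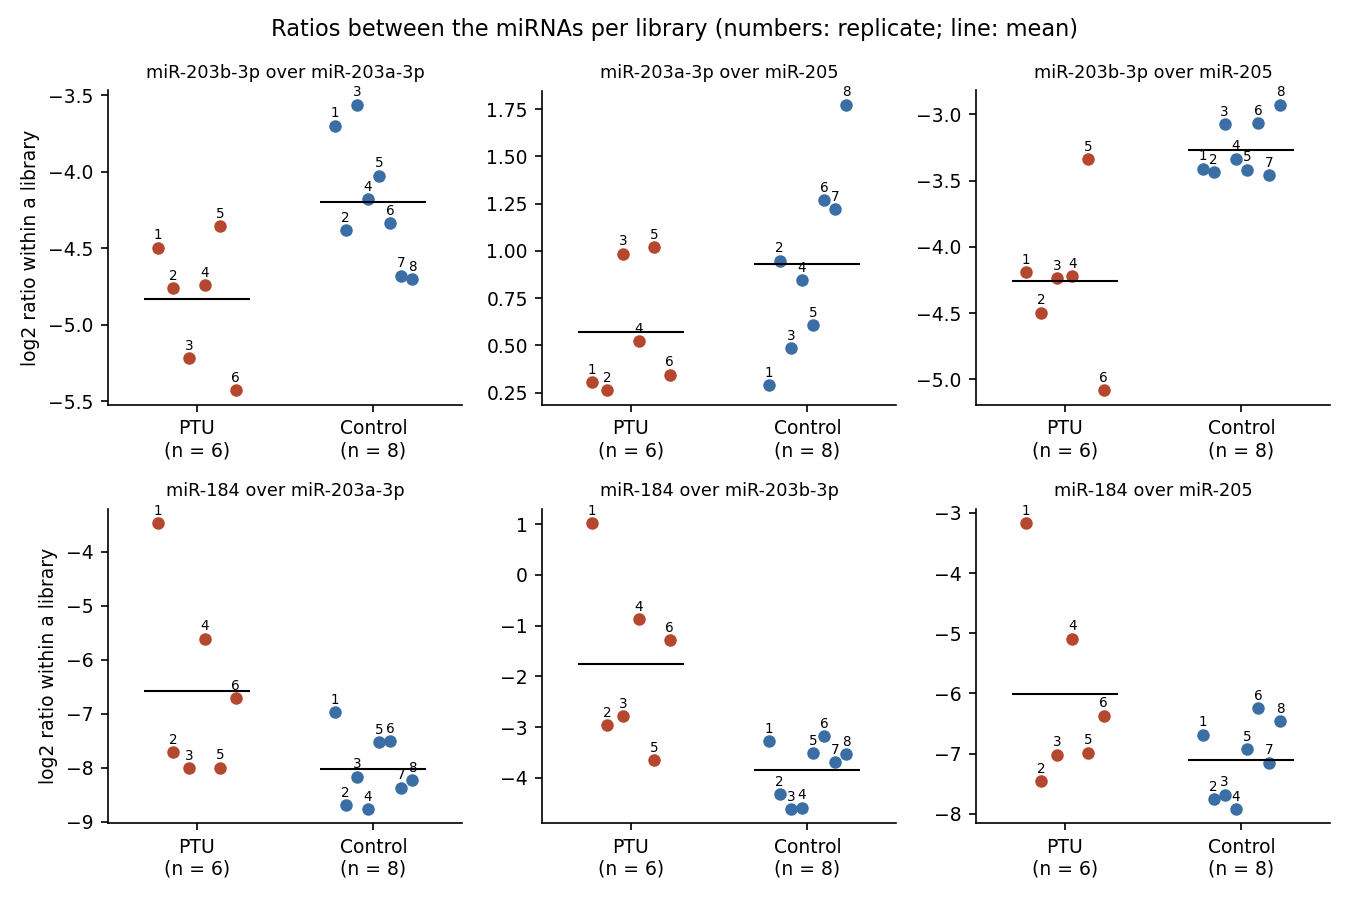
log2 ratio between each pair of the miRNAs within a library (y axis) for the PTU group (n = 6) and the Control group (n = 8); points are libraries with their replicate number and lines are group means. For miR-203b-3p over miR-205 the 8 Control libraries lie between -3.46 and -2.93 and 5 PTU libraries lie below them.

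On the TMM scale miR-203b-3p and miR-205 put the PTU libraries in the same order. Levels of miR-203b-3p fell into a band of 5 PTU libraries and a band of the other libraries, so the relation is given by group. In the PTU group (n = 6) Pearson's r of log2 CPM was 0.91 (exact permutation p = 0.00417, adjusted p = 0.025 over 6 pairs) and Spearman's rho was 1 (exact p = 0.00278, adjusted p = 0.0167). In the Control group (n = 8) r was 0.76 (exact permutation p = 0.0273, adjusted p = 0.164) and rho was 0.86 (exact p = 0.0107, adjusted p = 0.0643). Without PTU replicates 3 and 6, the libraries farthest from the median of miR-203b-3p, r over the remaining 12 libraries was 0.37 (permutation p = 0.234, adjusted p = 0.424) and rho was 0.64 (permutation p = 0.0275, adjusted p = 0.159). Over all libraries Pearson's r thus rests on those 2 libraries. All levels in a library share 1 scaling factor, and the equal order in the PTU group depends on it. PTU replicates 1, 4 and 2 had 109, 110 and 113 CPM of miR-203b-3p, from 91, 115 and 96 counts. Without TMM factors PTU replicate 2 had 101 CPM of miR-203b-3p, below replicates 1 and 4 (111 and 112 CPM). Its miR-205 was still above theirs on that scale (2321 against 2063 and 2114 CPM). The correlation by group was not tested without factors.

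For the miR-203 pair itself no correlation passed the adjusted threshold in either group. In PTU pups r was 0.94 (n = 6, exact permutation p = 0.0486, adjusted p = 0.106) and rho 0.66 (exact p = 0.175, adjusted p = 0.350). In Control pups r was 0.17 (n = 8, exact permutation p = 0.685, adjusted p = 0.822) and rho -0.10 (exact p = 0.840, adjusted p = 0.882). The difference between the groups' correlations was not tested. miR-203a-3p and miR-205 had r = 0.51 over all 14 libraries (permutation p = 0.0605, adjusted p = 0.121) and rho = 0.42 (permutation p = 0.141, adjusted p = 0.281). Without PTU replicates 5 and 6, which are farthest from the median of miR-203a-3p, r was 0.17 (permutation p = 0.598). By group this pair had r = 0.80 in PTU pups (n = 6, exact permutation p = 0.0528, adjusted p = 0.106) and rho = 0.66 (exact p = 0.175, adjusted p = 0.350). In Control pups r was 0.08 (n = 8, exact permutation p = 0.841, adjusted p = 0.841) and rho was -0.07 (exact p = 0.882, adjusted p = 0.882). miR-184 had r between -0.19 and 0.09 with the other members over all 14 libraries (lowest permutation p = 0.530, adjusted p = 0.722).

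**Figure D4:**
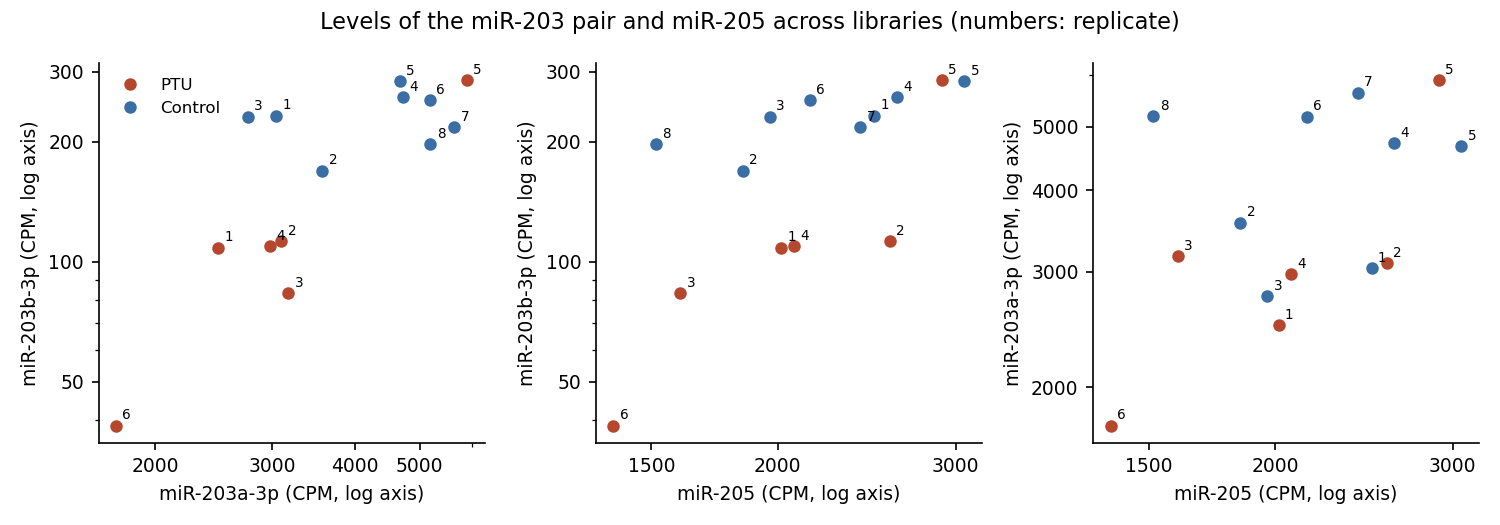
Levels of the miR-203 pair and miR-205 plotted against each other in TMM-scaled CPM on log axes; points are libraries with their replicate number, red for PTU (n = 6) and blue for Control (n = 8). At a like level of miR-205, 5 PTU libraries have less miR-203b-3p than the Control libraries, and PTU replicate 6 is lowest for all 3 miRNAs.

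The miRNAs outside the members whose log2 CPM followed each member most closely were found by Pearson's r over the 14 libraries, as a description without a test. These r pool both groups, so a difference between the groups enters them, and they were not computed by group. Each miRNA named here had the same sign of log2 fold change as its member. For miR-203b-3p they were miR-146a-5p (r = 0.81), an inducible immune miRNA, miR-378a-3p (0.80), from an intron of a metabolic coactivator gene, and miR-582-3p (0.78). Their log2 fold changes were -0.40, -0.27 and -0.51. For miR-203a-3p they were miR-370-5p (0.81), miR-152-3p (0.81) and miR-199a-3p (0.76), the last made in fibroblasts. For miR-205 they were miR-204-5p (0.75), a miRNA of the retinal pigment epithelium, miR-125b-2-3p (0.74) and miR-99a-5p (0.63). For miR-184 they were miR-425-3p (0.72), miR-1224 (0.57) and miR-132-3p (0.57), the last an activity-induced neuronal miRNA. The values for miR-184 include PTU replicate 1 at 222 CPM.

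Other epithelial miRNAs gave no call at a false discovery rate of 0.05 either. Of 15 tested members of this list (drawn from the miR-200 and miR-183 families, miR-31, miR-34b, miR-34c, miR-449a, miR-375 and intestinal miRNAs), 5 had a positive and 10 a negative log2 fold change, with a median of -0.14 beside 0.03 over all tested miRNAs. Of these only miR-141-3p had an unadjusted p under 0.05, with 877 ± 1265 CPM in PTU pups (SD, n = 6) and 407 ± 110 CPM in Control pups (SD, n = 8; log2 fold change 1.11 ± 0.51, adjusted p = 0.356, edgeR). PTU replicate 6 carries that value: the other PTU libraries had 258 to 673 CPM, 2 of 6 PTU libraries lay above the Control median, and without PTU replicate 6 the log2 fold change was -0.21 (adjusted p = 0.772, edgeR). The next lowest p was for miR-215, an intestinal miRNA, with 9.31 ± 5.61 CPM in PTU pups (SD, n = 6) and 18.7 ± 11.9 CPM in Control pups (SD, n = 8; log2 fold change -0.91 ± 0.44, adjusted p = 0.384, edgeR). Without PTU replicate 6, 2 of the 15 were positive and 13 negative, with a median of -0.21 beside 0.005 over all tested miRNAs. At an unadjusted p under 0.05 the list then had 0 higher and 1 lower, where 22 and 27 of 359 tested miRNAs were. In PTU replicate 6 the summed list was at 6428 CPM, the highest of all libraries, while the members' sum was at 3177 CPM, the lowest.

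Where 57.7% of all tested miRNAs were higher and 42.3% lower, miRNAs of the dermis and other mesenchyme had 8 of 20 tested members higher and 12 lower. Their log2 fold changes had a median of -0.10, with no call at a false discovery rate of 0.05. At an unadjusted p under 0.05, where 7.84% of all tested miRNAs were higher and 5.32% lower, the list had 1 higher and 2 lower. Those with the lowest p were miR-29b-3p, which represses collagen genes (2.01 ± 0.70 SE, adjusted p = 0.258, edgeR), and miR-199a-3p (-0.29 ± 0.13 SE, adjusted p = 0.308, edgeR). miR-29b-3p averaged 317 ± 587 CPM in PTU pups (SD, n = 6) and 80.02 ± 35.4 CPM in Control pups (SD, n = 8). PTU replicate 6 had 1512 CPM of it, where the other PTU libraries had 42.9 to 164 CPM, and without that library its log2 fold change was -0.075 (adjusted p = 0.947, edgeR). For the whole list without PTU replicate 6, 5 of 20 were higher and 15 lower, with a median of -0.21 beside 0.005 over all tested miRNAs. At an unadjusted p under 0.05 it then had 0 higher and 4 lower, where 22 and 27 of 359 tested miRNAs were. With all libraries the list's summed level was 67628 to 84069 CPM in PTU libraries and 70104 to 100595 CPM in Control libraries, so the groups overlapped.

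Markers of other sources were set beside these values. Erythroid miRNAs had 5 of 5 tested members with a positive log2 fold change (median 0.93), where 57.7% of all tested miRNAs had one. The 5 come from 3 precursors, so they are not 5 separate markers, and miR-486, also listed, was not in the table. Of the 5, 4 were higher at an unadjusted p under 0.05, where 7.84% of all tested miRNAs were. None passed a false discovery rate of 0.05. Without PTU replicate 6 the median was 0.48, 5 of 5 were again positive and 2 were higher at that unadjusted threshold. The erythroid summed level was 2858 to 19314 CPM in PTU libraries and 1802 to 6058 CPM in Control libraries. The lowest p were those of miR-144-3p (1.21 ± 0.32 SE) and miR-144-5p (1.41 ± 0.46). Striated muscle miRNAs had 4 of 8 higher (median -0.04), where 57.7% of all tested miRNAs were. Their sum was 354383 to 590990 CPM in PTU and 413177 to 549990 CPM in Control. Of this list miR-1-3p (-0.43 ± 0.16) and miR-499-5p (0.27 ± 0.17) had the lowest p. Without PTU replicate 6, 4 of 8 were again higher (median -0.02). At an unadjusted p under 0.05 the muscle list had 0 higher and 1 lower with all libraries, and 1 higher and 1 lower without PTU replicate 6. The hepatocyte miRNA miR-122-5p had -0.22 ± 0.42 (333 to 2146 CPM in PTU and 370 to 2567 CPM in Control), and -0.39 without PTU replicate 6. Leukocyte and platelet miRNAs had 3 of 7 higher (median -0.13), where 57.7% of all tested miRNAs were. Their sum was 8008 to 19667 CPM in PTU and 9115 to 12568 CPM in Control. Of this list miR-146a-5p (-0.40 ± 0.15) and miR-142-3p (0.97 ± 0.37) had the lowest p. At an unadjusted p under 0.05 the list had 1 higher and 2 lower, where 7.84% and 5.32% of all tested miRNAs were. Without PTU replicate 6, 2 of 7 were higher (median -0.27). At that unadjusted threshold the list then had 1 higher and 3 lower, where 22 and 27 of 359 tested miRNAs were. None of these passed a false discovery rate of 0.05 by edgeR, and every tested marker had at least 1 count in every library. The part of red cell RNA and of the other sources in the members' differences was not tested.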

How the data were processed

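The authors deposited 1 table with raw counts per library for 375 mature rat miRNAs. It gives the authors' log2 fold change and mean log2 CPM, the p-value and FDR they deposited, and each group's mean count, a linear signal deposited by the authors. The authors used edgeR, per the submitters' processing notes, and a QIAseq miRNA kit, per the labels' protocols. The aligner, the strand setting and any use of molecular identifiers were not given in the sources used here. Totals are sums over the listed miRNAs, and intervals and floors cover counting error only.

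Counts were filtered with filterByExpr, scaled by TMM and tested for PTU against Control with edgeR 4.0.16 (quasi-likelihood, Benjamini-Hochberg adjustment, no covariate) in R 4.3.3; the fit was tested on simulated data. Log2 CPM used a prior count of 2. Correlations over 10 or more libraries used random permutations. Within groups, libraries differed by more than sampling noise (smallest chi-square per degree of freedom 21.7). Sequences are from RefSeq; the files name no build. The text names every member, for each the 3 other miRNAs with the highest Pearson correlation, and for each marker list the 2 with the lowest p; miR-141-3p in PTU replicate 6 was singled out after its value was seen. Members and lists were chosen with earlier results of these data known. No pairing of libraries by replicate number was seen (correlations of same-numbered libraries -0.25 to 0.29), though so few pairs cannot exclude one. Alternatives were other scalings, filters, tools (DESeq2 1.42.0, limma 3.58.1), a depth covariate, a replicate block and each library left out.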

Additional observations from a re-analysis of the deposited data

Results flagged for a closer look

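In the PTU group, 3 values stood apart from the other 5 libraries by Dixon's criterion. It was applied to 20 groups, from the CPM of each member and from the log2 ratios, and no group of log2 ratios passed it. Chance passes it in about 1 of 20 groups of independent normal values. The groups share libraries and CPM was not on a log scale, so that rate is only rough here. PTU replicate 5 had 5889 CPM of miR-203a-3p, where the other PTU libraries had at most 3173 CPM. The same library had 286 CPM of miR-203b-3p, where the others had at most 113 CPM. PTU replicate 1 had 222 CPM of miR-184, where the others had at most 59.1 CPM. The cause of these values was not tested.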

How the results depend on the processing

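The count of miRNAs past a false discovery rate of 0.05, 0 with all libraries by edgeR's quasi-likelihood test, was 1 with DESeq2, 3 with the likelihood ratio test, 3 with the exact test and 1 with total count as covariate; no member was among them. It was 0 to 1 with single libraries left out, the 1 being miR-203b-3p without PTU replicate 5 (log2 fold change -1.36). Upper-quartile factors shifted the median log2 fold change by -0.11, and the split at an unadjusted p under 0.05 was 28 higher and 19 lower with TMM, 13 and 38 with upper-quartile factors and 44 and 9 with no factors. Each member kept the sign of its log2 fold change in all 27 alternatives: -0.68 to -0.31 for miR-203a-3p, -1.36 to -0.74 for miR-203b-3p, -0.22 to -0.01 for miR-205 and 0.64 to 2.11 for miR-184. With the replicate block over replicates 1 to 6, miR-184 had 1.17 and miR-203b-3p -1.17; without the block the same libraries, chosen after the data were seen, gave 1.88 and -0.97. The numbers pair nothing in the labels, and 1 of 6 PTU libraries correlated best with its own number.

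With single libraries left out, log2 ratio differences ran from -0.73 to -0.52 for miR-203b-3p over miR-203a-3p, 0.82 to 1.72 for miR-184 over miR-203a-3p and 0.52 to 1.38 for miR-184 over miR-205. With a prior count of 0.5 miR-184 over miR-203a-3p was 1.49 and no longer past the threshold. The correlation of miR-203b-3p with miR-205 over all libraries, r = 0.68, was past the threshold; it was 0.61 with no factors, 0.76 within Control and 0.37 without the 2 farthest libraries, none of them past it. That of the miR-203 pair, 0.80, was past it, but not within Control (0.17), within PTU (0.94) or without the 2 farthest libraries (0.68). Of miR-184, r with miR-203a-3p was -0.19 over all libraries, 0.39 within Control and 0.34 without the 2 farthest; r with miR-203b-3p was -0.15, 0.54 within Control, 0.16 within PTU and 0.25 without the 2 farthest. The causes were not tested. Without PTU replicate 6, an alternative added for the named marker miRNAs after the data were seen, miR-141-3p had a log2 fold change of -0.21 and miR-29b-3p one of -0.075, against 1.11 and 2.01 with all libraries.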
